A study of Macaca fascicularis with 10 samples.

Results

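The 7 transfer RNA rows with most allelic reads, out of 7229 rows in a table of allele-specific counts, were TRNAG-CCC (glycine), TRNAP-UGG (proline), TRNAV-AAC (valine), TRNAR-UCG (arginine), TRNAW-CCA (tryptophan), TRNAL-UAG (leucine) and TRNAF-GAA (phenylalanine). The symbol gives the amino acid as 1 letter and, after the hyphen, the anticodon. The rows were chosen by their mean share of allelic reads in these same libraries, so the size and order of their shares are a description with no test. How a share differed between daughters was not used in the choice, and was tested against depth and title prefix as a check of the libraries.

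Transfer RNAs are short, folded RNAs that carry amino acids to the ribosome, each reading codons through its anticodon. They are transcribed by RNA polymerase III from many near-identical gene copies, then trimmed, modified at numerous bases and charged by the aminoacyl-tRNA synthetase of their amino acid. Every cell of the brain makes them, and most RNA-seq protocols were not designed to capture molecules so short and so heavily modified.

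The libraries came from the dorsal raphe nucleus, a brainstem region rich in serotonin neurons, of 10 female cynomolgus macaques (Macaca fascicularis), each with a labelled mother and father. All 10 daughters form 1 group, the labels name no treatment, and their age and strain are not given in the sources used here. For each daughter the table gives reads assigned to the maternal and to the paternal allele, 20 columns in all. Numbers 1 to 10 follow the sample labels. Of the parents 3 are shared: daughters 1, 7 and 8 have the same father, as do daughters 4 and 5, and daughters 6 and 10 have the same mother.

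Allelic reads are those that could be assigned to 1 parent. They ranged from 30090 in daughter 1 to 999471 in daughter 6, so daughter 1 is by far the least precise. Of 11 serotonin neuron markers 7 had a row, TPH2 and SLC6A4 among them, with a summed share of 0 to 0.641% of allelic reads per daughter. The summed shares of 9 other neuron markers (8 with a row) were 0.0449% to 0.361%, of 4 endothelial markers (3 with a row) 0.0240% to 0.124%, of 3 oligodendrocyte precursor markers (2 with a row) 0 to 0.110%, of 3 choroid plexus markers 0 to 0.0535%, and of 3 blood markers (1 with a row) 0 to 0.00262%. Of 6 astrocyte, 6 oligodendrocyte, 5 microglia and 3 cerebellum markers, 0 had a row. A gene without a value in a daughter added 0 to the summed shares, so a share of 0 does not show a lack of expression. Between 1753 (daughter 1) and 4816 (daughter 5) of the 7229 genes had a value in a daughter. How the marker shares relate to the transfer RNA rows was not tested.

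What a row holds limits every value below. The name of the deposited table says that redundant genes were summed, so a row may pool several copies. In RefSeq genes of T2T-MFA8v1.1, an assembly on another build than the counts, the 7 symbols cover 50 of 440 transfer RNA genes. TRNAF-GAA has 11 annotated copies on 5 chromosomes, TRNAV-AAC has 10 on 3, TRNAG-CCC and TRNAW-CCA have 8 each on 4, TRNAP-UGG has 5 on 4, TRNAR-UCG has 5 on 3, and TRNAL-UAG has 3 on 3. Copies are 71 to 82 bases long, shorter than the 101 cycles read from each end. Of these 50 copies, 2 of TRNAG-CCC, 3 of TRNAP-UGG, 1 of TRNAR-UCG, 1 of TRNAW-CCA and 2 of TRNAF-GAA lie inside the span of an annotated protein-coding or long non-coding gene. For TRNAG-CCC one such gene is ULK2, a kinase gene, and for TRNAF-GAA they are PHIP, IRAK1BP1 and DCT. Of all these enclosing genes DCT alone has a row, with 15 allelic reads over all daughters. Of the 7229 symbols 6566 matched that gene table, 6554 as protein-coding genes and 12 as transfer RNAs, so transfer RNA was the sole non-coding class among the matched rows.

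The 7 rows held close to the same proportion of the allelic reads in every animal. Together they took 31.6% ± 1.17 (SD, n = 10) of the allelic reads of a daughter, from 30.3% in daughter 5, with a median of 31.3%, to 33.6% in daughter 7. The highest daughter exceeded the lowest by 1.11 times, although the reads behind the share ran from 10046 in daughter 1 to 307396 in daughter 6. In tissue with many cell types, fewer cells of a type and less RNA per cell cannot be told apart, and a share of allelic reads also depends on how many reads of other genes could be assigned.

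TRNAG-CCC, a glycine transfer RNA whose anticodon pairs with the codon GGG, was the most abundant row in all 10 daughters. Its share of allelic reads was 7.82% (daughter 8), 8.92% (daughter 10), 9.01% (daughter 5), 9.43% (daughter 9), 9.44% (daughter 4), 9.92% (daughter 6), 9.95% (daughter 2), 10.5% (daughter 7) and 10.7% (daughters 1 and 3). Its mean was 9.63% ± 0.898 (SD, n = 10), and daughter 8 was the lowest. The proline row TRNAP-UGG followed at 5.71% ± 0.857 (SD, n = 10), with 4.18% in daughter 6 as the lowest, a median of 5.90% and 6.66% in daughter 9 as the highest. TRNAG-CCC exceeded it in all 10 daughters, by 1.73 ± 0.391 times (SD, n = 10).

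The valine row TRNAV-AAC held 4.68% ± 0.397 (SD, n = 10), from 4.05% in daughter 2, with a median of 4.80%, to 5.22% in daughter 1. The arginine row TRNAR-UCG had the highest SD relative to its mean, 21.4%, with TRNAL-UAG next at 21.1%. Its mean was 4.12% ± 0.882 (SD, n = 10), with 2.96% in daughter 1, a median of 3.95% and 6.07% in daughter 7. Its rank among the 7 was 2 in daughters 3 and 7 and 5 in daughters 1 and 2, so its place against TRNAV-AAC is not fixed: TRNAV-AAC was higher in 7 of 10 daughters, with a ratio of 0.744 to 1.76.

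TRNAW-CCA, whose anticodon reads the sole tryptophan codon, held 2.87% ± 0.395 (SD, n = 10), from 2.34% in daughter 10, with a median of 2.76%, to 3.49% in daughter 8. The leucine row TRNAL-UAG held 2.54% ± 0.534 (SD, n = 10), from 1.82% in daughter 9, with a median of 2.46%, to 3.45% in daughter 2. The order of TRNAW-CCA and TRNAL-UAG was not fixed: TRNAW-CCA was higher in 7 of 10 daughters, with a ratio of 0.766 to 1.63. The phenylalanine row TRNAF-GAA was the most even single row, with an SD of 6.96% of its mean. It held 2.0% ± 0.139 (SD, n = 10), from 1.84% in daughter 5 to 2.32% in daughter 9, and was the lowest of the 7 in every daughter except daughter 9, where TRNAL-UAG was lower.

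**Figure D1:**
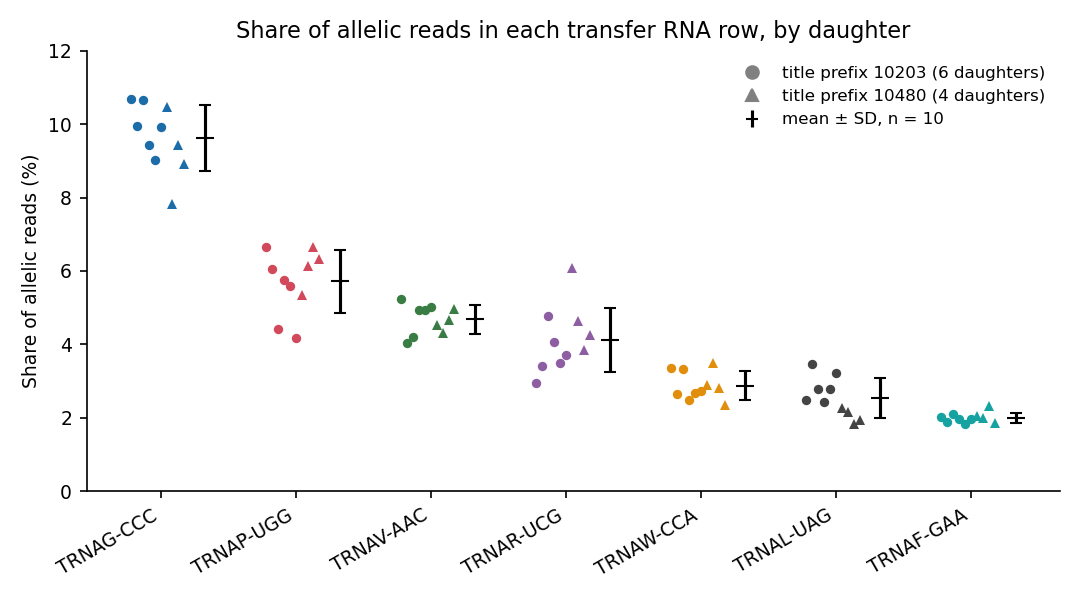
Share of allelic reads (%, linear axis from 0) in each of the 7 rows; each point is 1 daughter, circles are title prefix 10203 (6 daughters), triangles 10480 (4 daughters), and bars show mean ± SD over 10. TRNAG-CCC lies above every other row in all daughters, and TRNAL-UAG is the row in which circles and triangles do not overlap.

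Divided by the length of an annotated copy, the order of the rows was the same, from 0.136% of allelic reads per base for TRNAG-CCC to 0.0274% for TRNAF-GAA. The order by annotated copy number is different: TRNAF-GAA, with most copies, had fewest reads of the 7. Just outside the chosen rows lay TRNAA-UGC (alanine) at 0.496% ± 0.106 (SD, n = 10), below TRNAF-GAA by 4.18 ± 0.872 times. The 5 other transfer RNA rows, TRNAA-UGC, TRNAR-CCU (arginine), TRNAI-UAU (isoleucine), TRNAC-GCA (cysteine) and TRNAE-CUC (glutamate), together held 1.06% ± 0.165 (SD, n = 10). The highest row outside transfer RNA differed between daughters and held 0.945% to 3.51% of allelic reads. All 7 rows exceeded it in 7 of the 10 daughters; in daughter 1 GAPDH lay above TRNAF-GAA, in daughter 9 GAPDH lay above TRNAL-UAG and TRNAF-GAA, and in daughter 8 GNAS lay above TRNAW-CCA, TRNAL-UAG and TRNAF-GAA.

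Reads in each row followed the depth of the rest of the library closely. On log2 scales the slope of the 7 rows' reads on the reads outside transfer RNA was 0.965, and for single rows it was 0.911 (TRNAP-UGG) to 1.04 (TRNAL-UAG and TRNAR-UCG), where 1 means a constant proportion. The share of the 7 rows together was lower in deeper daughters, with Pearson's r = -0.69 (permutation test, two-sided, p = 0.0198) and Spearman's rho = -0.53 (permutation p = 0.123). Neither passed the Benjamini-Hochberg adjustment over the 8 values tested (adjusted p = 0.159 for r and 0.231 for rho, permutation tests). The reads outside transfer RNA are also part of the share's denominator. A negative r can come in part from that shared term, which was not tested. Without daughters 1 and 7, the farthest from the median depth, r was -0.14, so the relation rests on those daughters. Within title prefix 10203 r was -0.86 over 6 daughters, daughter 1 among them, and no correlation was computed over the 4 daughters of 10480. In order of rising depth these 4 had 33.6%, 30.5%, 31.6% and 30.6%, the highest at the lowest depth. Among single rows the smallest adjusted p was 0.391 for r and 0.231 for rho (permutation tests).

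**Figure D2:**
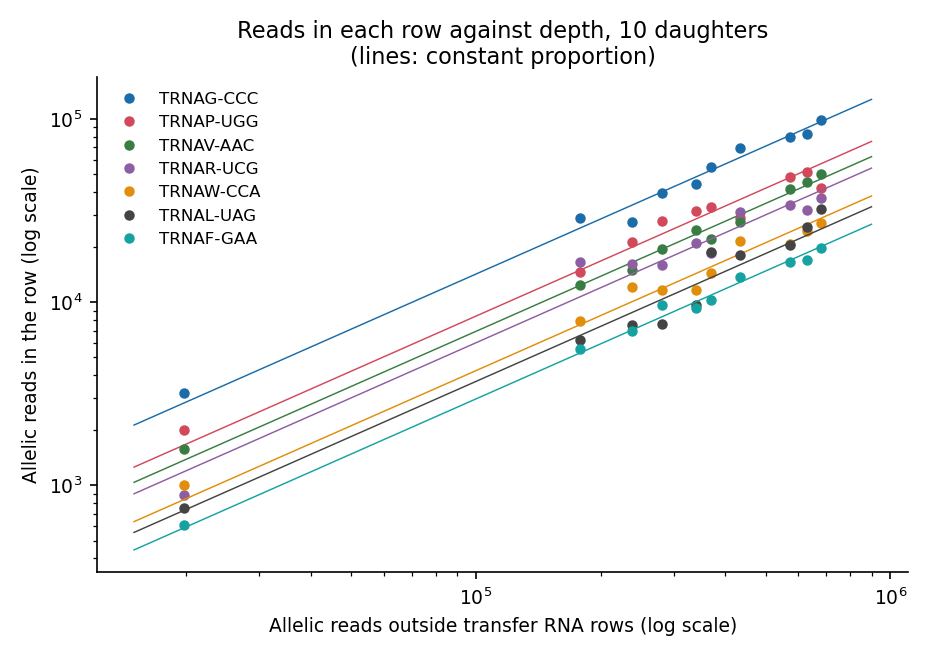
Allelic reads in each row against allelic reads outside transfer RNA rows, both on log scales, with 1 point per daughter and row; each line is the row's constant proportion. The 10 points of each row lie close to its line across depths from 19841 to 680293 reads, with daughter 1 alone at the left.

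The level of the 7 rows varied less between daughters than that of the other genes measured in all of them, which is a description. The SD over daughters of the log2 share was 0.098 for TRNAF-GAA, 0.12 for TRNAV-AAC, 0.14 for TRNAG-CCC, 0.20 for TRNAW-CCA, 0.23 for TRNAP-UGG, 0.29 for TRNAR-UCG and 0.30 for TRNAL-UAG. Among 139 genes outside transfer RNA with 10 or more reads in every daughter, the median SD was 0.86 and the lowest 0.33, for LRP1B, so none was as even as any of the 7 rows. The 12 of those genes with a mean of 1000 or more reads had SDs of 0.40 to 1.95, each on fewer reads than any of the 7 rows; the part of read number and of informative positions was not tested. Of the less abundant transfer RNA rows, TRNAA-UGC had 0.31 and TRNAR-CCU 0.42, with 0 and 4 of the 139 genes below them.

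**Figure D3:**
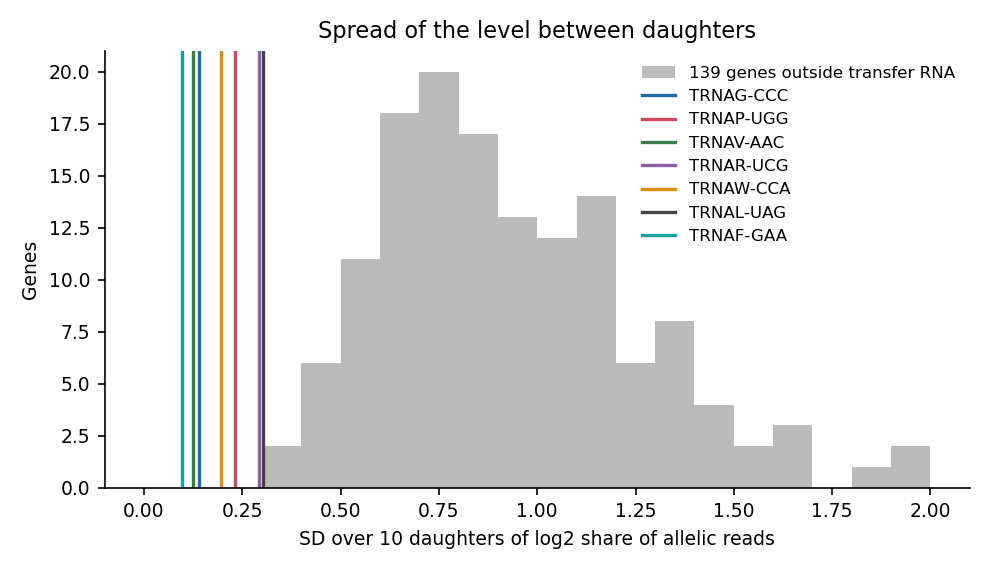
Histogram of the SD over 10 daughters of the log2 share of allelic reads for 139 genes outside transfer RNA (grey bars, number of genes), with the 7 rows as vertical lines. All 7 lines, from 0.098 to 0.30, lie to the left of the lowest of the 139 genes at 0.33, whose bin starts just below the line of TRNAL-UAG.

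The sample titles show 1 possible batch, their prefix (10203 for daughters 1 to 6, 10480 for daughters 7 to 10). The 7 rows together did not differ detectably, at 31.5% ± 1.12 (SD, n = 6) and 31.6% ± 1.43 (SD, n = 4), a log2 difference of 0.00058 (exact permutation test, two-sided, p = 0.986). TRNAL-UAG was the 1 row of the 7 whose groups did not overlap, with 2.44% to 3.45% in prefix 10203 and 1.82% to 2.26% in 10480. Among all 148 rows with 10 or more reads in every daughter, 2.03% did not overlap. Its log2 difference of -0.48 had p = 0.00952 by the exact permutation test, where 0.00476 is the smallest possible, and missed the threshold after adjustment over the 8 values (Benjamini-Hochberg adjusted p = 0.0762, exact permutation test). TRNAR-UCG went the other way, at 3.74% ± 0.625 (SD, n = 6) and 4.70% ± 0.972 (SD, n = 4) with overlapping groups (adjusted p = 0.305, exact permutation test). The labels of the parents carry prefixes as well. All parents of daughters 1 to 6 have the same prefix, while each of daughters 7 to 10 has at least 1 parent of another. That grouping follows the title prefix and cannot be told apart from it.

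Both parental columns carried the 7 rows about equally. The paternal share, the percent of its allelic reads under the paternal label, was 50.1% ± 0.530 (SD, n = 10) for the 7 rows together, from 49.5% in daughter 3 to 51.1% in daughter 2. Outside transfer RNA it was 49.9% ± 0.474 (SD, n = 10). By row the means ran from 49.5% ± 1.49 for TRNAF-GAA to 50.4% ± 1.0 for TRNAG-CCC (SD, n = 10 each). TRNAP-UGG had 49.7% ± 0.952, TRNAW-CCA 49.98% ± 1.32, TRNAV-AAC 50.2% ± 0.854, TRNAL-UAG 50.2% ± 1.01 and TRNAR-UCG 50.3% ± 2.47 (SD, n = 10 each). In each row the mean lay within 1 SD of equal shares.

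No parental difference was called in any of the 7 rows. Across all 2981 genes that reached 10 reads in at least 5 daughters, edgeR's quasi-likelihood test with the daughter as block called 0 of 2981 genes, a background of 0%, and DESeq2 also called 0%. At an unadjusted p under 0.05 edgeR gave 3.12% of all genes and 0 of the 7 rows, and DESeq2 2.08% of all genes and 0 of the 7. The smallest edgeR p among them was that of TRNAG-CCC (p = 0.320, adjusted p = 1). The intervals are narrow and hold for a row as summed: how reads that match several copies were assigned to an allele is not known here, so they do not bound a difference at a single copy. The log2 differences, paternal over maternal, ran from -0.028 for TRNAF-GAA to 0.020 for TRNAG-CCC, with a median of 0.010 against -0.0069 over all genes tested. For TRNAG-CCC the 95% interval was -0.022 to 0.062, for TRNAP-UGG -0.061 to 0.027, for TRNAV-AAC -0.033 to 0.054 and for TRNAW-CCA -0.058 to 0.057. For TRNAL-UAG it was -0.038 to 0.067, for TRNAF-GAA -0.092 to 0.037, and for TRNAR-UCG, the widest, -0.069 to 0.10. The SE of these differences was at most 0.040, against a median of 0.22 over all genes. The fit assumes that each column label means the same parent throughout, which was not tested. GRB10 had the largest SD of the paternal share over daughters among 700 genes outside transfer RNA, 48.9 percentage points. A spread of that size needs most of its reads under the maternal label in some daughters and under the paternal label in others. What lies behind the spread of this single gene was not tested. Were labels exchanged in some daughters, a signed difference would cancel. The 0 calls here and below, and the narrow intervals, hence do not show a lack of parental difference. An exchange of labels leaves the distance of a paternal share from 50% unchanged. Averaged over 10 daughters, that distance ran from 0.640 percentage points for TRNAV-AAC to 2.04 for TRNAR-UCG among the 7 rows. The largest in any daughter was 4.43 points, for TRNAR-UCG in daughter 1. These distances too hold for a row as summed.

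The parental difference was also compared between title prefixes. The interaction was called by edgeR in 0 of the 7 rows, against 1 of 2981 genes (0.0335%), and DESeq2 called 0 (0%). An unadjusted p under 0.05 was given to 106 genes (3.56%) by edgeR and 71 (2.38%) by DESeq2, and to 0 of the 7 rows by either. Within prefix 10203 the paternal share of the 7 rows together was 50.1% ± 0.636 (SD, n = 6) and within 10480 it was 50.02% ± 0.402 (SD, n = 4).

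Single daughters did depart from equal shares, on sides that changed from animal to animal. TRNAR-UCG did so most. Daughter 1 had a paternal share of 54.4% on 891 reads, with a 95% Wilson interval of 51.2 to 57.7, and daughter 2 had 52.8% on 18666 reads (52.1 to 53.5). Daughters 3, 4 and 5 had 48.3%, 48.2% and 50.8% on 31035, 34133 and 32075 reads. Daughter 6 had 46.8% on 37061 reads (46.3 to 47.3), daughters 7, 8 and 9 had 48.4%, 49.8% and 51.1%, and daughter 10 had 52.7% on 21154 reads (52.0 to 53.4). The interval lay above 50% in 5 daughters, below it in 4, and included it in daughter 8 alone. Daughters with a shared parent lay on the same side in some cases and not in others. Daughters 7 and 8, of the same father, both lay below 50%, and daughter 1, of that father too, had the highest share of the 10. Daughters 6 and 10, of the same mother, had the lowest share and the third highest, and daughters 4 and 5, of the same father, lay on opposite sides. Reads are not independent molecules, so the intervals hold counting error alone.

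TRNAG-CCC had intervals above 50% in daughters 1, 2, 4, 6 and 8 and below it in daughters 9 and 10, with a range of 48.9% in daughter 10 to 52.5% in daughter 1. TRNAP-UGG lay between 48.3% in daughter 7 and 51.2% in daughter 6, with 2 intervals above 50% and 3 below. TRNAV-AAC lay between 49.2% and 51.5%, TRNAL-UAG between 49.1% and 52.5%, TRNAW-CCA between 46.6% and 51.2%, and TRNAF-GAA between 45.8% and 50.9%. The low ends of TRNAW-CCA and TRNAF-GAA both belong to daughter 1, where the rows held 1011 and 609 reads. Within a daughter the rows did not all lean 1 way, except in daughter 3, where all 7 lay below 50% (48.3% to 49.8%). In daughters 2 and 8, 6 of the 7 lay above it.

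**Figure D4:**
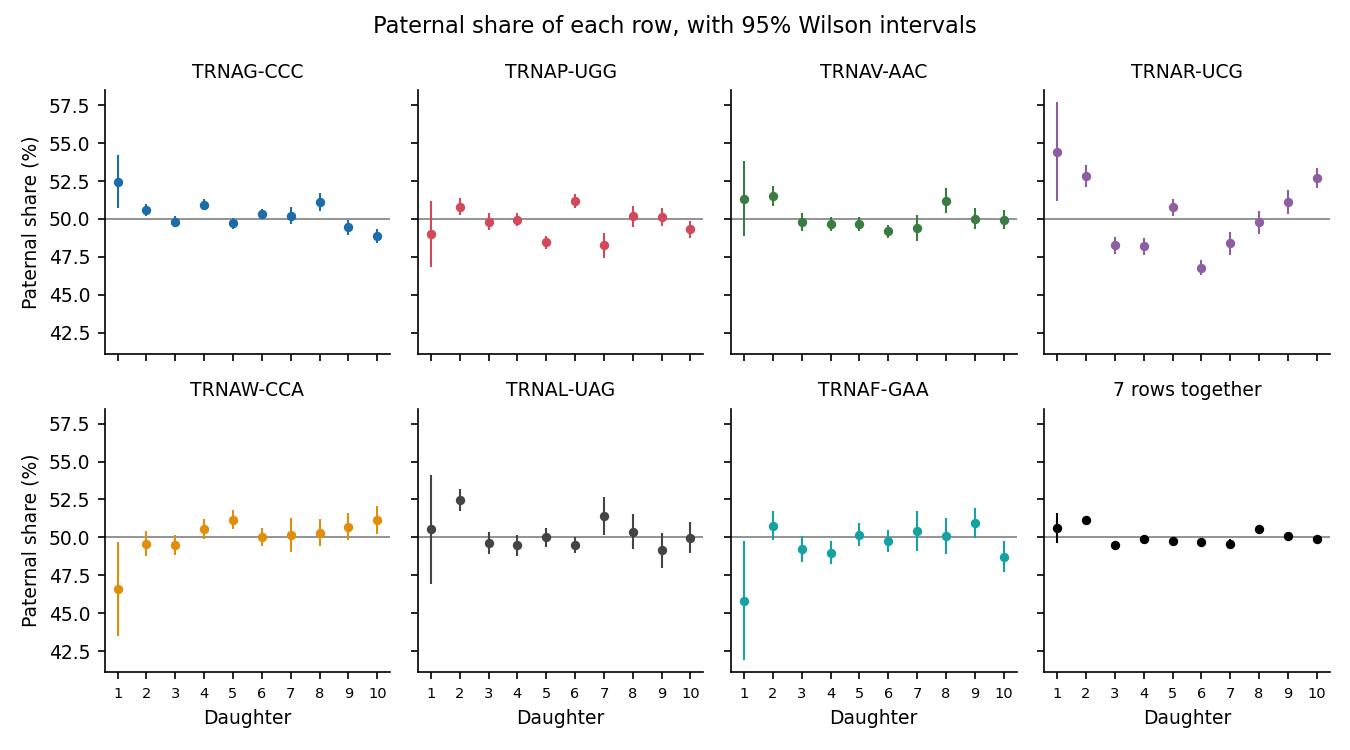
Paternal share (%) of each of the 7 rows and of their sum in daughters 1 to 10, with 95% Wilson intervals as vertical bars and a grey line at 50%. TRNAR-UCG scatters from 46.8% to 54.4% with intervals that mostly exclude 50%, while the other rows stay within 45.8% to 52.5%.

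The spread of the paternal share between daughters was larger than counting error alone in all 7 rows, while small in absolute size. The SD over daughters divided by the SD that binomial counting gives was 4.01 for TRNAR-UCG, 2.85 for TRNAG-CCC, 2.11 for TRNAP-UGG, 2.08 for TRNAW-CCA, 1.88 for TRNAF-GAA, 1.69 for TRNAV-AAC and 1.40 for TRNAL-UAG, with a median of 2.08. Over 700 genes outside transfer RNA that reached 100 reads in at least 5 daughters the median ratio was 1.62. Daughter 1, the shallowest, weighs on the counting SD: without it the ratio was 6.35 for TRNAR-UCG, 3.32 for TRNAP-UGG, 3.15 for TRNAG-CCC, 2.43 for TRNAV-AAC, 2.34 for TRNAL-UAG, 1.59 for TRNAF-GAA and 1.46 for TRNAW-CCA, with a median of 2.43 against 1.62 over 697 genes. TRNAL-UAG was the 1 row whose ratio fell below 1 when a daughter was left out (0.919 without daughter 2). In percentage points the SD of these rows, 0.854 to 2.47, was below the median of 5.03 over the 700 genes, 57 of which had a lower SD than TRNAR-UCG and 1 to 6 a lower one than each other row. Mean reads per daughter were lower in each of the 700 genes than in any of the 7 rows.

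**Figure D5:**
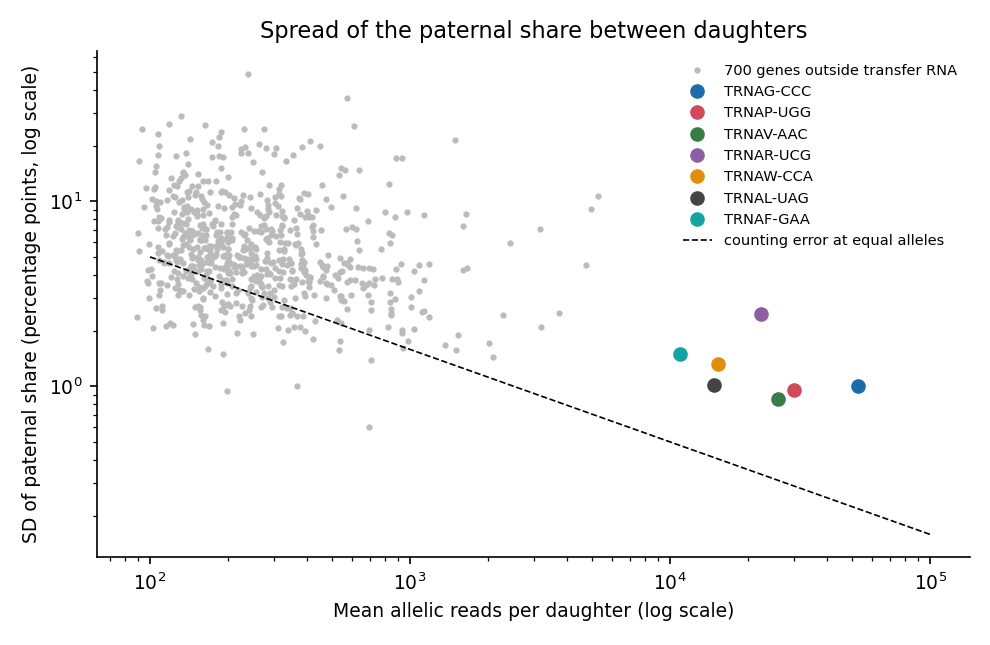
SD over daughters of the paternal share (percentage points) against mean allelic reads per daughter, both on log scales, for 700 genes outside transfer RNA (grey) and the 7 rows (coloured); the dashed line is the binomial SD at equal alleles for that mean. The 7 rows lie at the right, between 0.854 and 2.47 points, all above the dashed line. Because depth differed between daughters, the counting SD used for the ratios is higher than this line. It ran from 0.353 points for TRNAG-CCC to 0.791 for TRNAF-GAA, so height above the line overstates the excess.

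The other transfer RNA rows were measured with fewer reads and were less even. TRNAA-UGC, with 103 to 5481 reads, had a paternal share of 47.2% ± 3.49 (SD, n = 10), below 50% in 7 of 10 daughters. Its log2 difference of -0.17 (95% interval -0.30 to -0.038) had an unadjusted edgeR p of 0.0154 and did not pass (adjusted p = 1); DESeq2 gave an unadjusted p of 0.0118, which also did not pass. TRNAR-CCU, the second arginine row, had 47.4% ± 4.38 (SD, n = 10), TRNAI-UAU 48.2% ± 5.09, TRNAC-GCA 53.5% ± 9.38 and TRNAE-CUC 49.4% ± 10.7 (SD, n = 9 each). None of the 5 was called.

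Genes that make, charge and modify transfer RNA were taken from 5 lists of 177 symbols, of which 70 had a row and 37 were tested. edgeR called 0 of the 37 in either direction, against 0% of all genes, with 1 at an unadjusted p under 0.05. The median log2 difference of the 37 was -0.13, against -0.0069 over all genes tested, and whether these medians differ was not tested. Over all genes the median size of a difference, whatever its sign, was 0.14, and the median SE 0.22. Medians of the 5 lists ran from 0.0096 (cytosolic synthetases and partners, 6 tested) to -0.47 (mitochondrial synthetases, 2 tested). Their 70 rows together held 0.853% of allelic reads on average (0.744% to 1.08% over daughters). The cytosolic synthetases for the 7 amino acids of these rows were among the symbols listed. They were not among the genes named below, which were chosen by mean level.

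Among cytosolic synthetases and their partners 6 were tested and 0 called. IARS, the isoleucine enzyme, had a paternal share of 48.4% ± 2.69 (SD, n = 9), NARS, the asparagine enzyme, 50.2% ± 4.12 (SD, n = 9), and TARSL2, a threonine enzyme, 50.6% ± 9.22 (SD, n = 10). EEF1E1, a scaffold of the synthetase complex, had 58.4% of 185 reads in the single daughter measured. Of the mitochondrial synthetases 2 were tested and 0 called. EARS2, the mitochondrial glutamate enzyme, was the 1 gene with an unadjusted edgeR p under 0.05 (p = 0.0146, adjusted p = 1). Its paternal share was 36.3% ± 11.6 (SD, n = 7) on 23 to 46 reads, and that of NARS2, the mitochondrial asparagine enzyme, 45.6% ± 15.0 (SD, n = 5).

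For RNA polymerase III and its factors 7 were tested and 0 called. GTF3C1 and GTF3C3, subunits of the factor that binds transfer RNA promoters, had 47.8% ± 8.81 (SD, n = 8) and 56.0% ± 9.31 (SD, n = 4). CRCP and POLR3A, polymerase subunits, had 57.0% ± 9.10 (SD, n = 8) and 48.7% ± 5.39 (SD, n = 9). For processing and export 6 were tested and 0 called. SSB, the La protein that binds the tail of new polymerase III transcripts, had 48.8% ± 3.70 (SD, n = 7), and RTCB, the ligase of spliced transfer RNA, 49.2% ± 4.79 (SD, n = 9). RNH1, a ribonuclease inhibitor, had 50.6% ± 6.12 (SD, n = 9) and ELAC2, which cuts the trailing end, 46.6% ± 10.9 (SD, n = 8). Among modification genes 16 were tested and 0 called. IKBKAP, a subunit of the Elongator complex, had 49.8% ± 3.65 (SD, n = 9), TRMT112, a partner of methyltransferases, 58.1% ± 14.5 (SD, n = 5), and TRUB1, a pseudouridine synthase, 48.4% ± 5.29 (SD, n = 6). ELP4, also of Elongator, ranged from 1.43% in daughter 7 to 60.9% in daughter 4 over the 3 daughters measured.

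Last, genes were ranked by how closely their allelic ratio followed that of the 7 rows over the daughters, as a description. Of 16 genes outside transfer RNA with 50 or more reads in every daughter, CLSTN3, a synaptic membrane protein gene, had the highest Pearson's r of the log2 ratios at 0.85, then the axonal motor gene KIF1A at 0.70, CLSTN1 at 0.38, CLIP4 at 0.37 and GAPDH at 0.30 over 10 daughters. Without daughter 1, r was 0.85 for CLSTN3, 0.72 for KIF1A and 0.35 for CLSTN1, and CLIP4 and GAPDH had 0.13 each. The order after KIF1A thus changed: the complement gene C3, at 0.23 over 10 daughters, had 0.40 without daughter 1. The points share a library, and the ratio of the 7 rows itself varied only between 49.5% and 51.1% paternal.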

How the data were processed

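Total RNA was sequenced as stranded libraries after ribosomal RNA depletion, and read from both ends for 101 cycles, per the labels' protocols. That text also names an antibody step on nuclei, whose data were not used here. Novoalign is named in the submitters' processing notes, with no version. The authors deposited whole-number counts per gene, 1 maternal and 1 paternal column for each of 10 daughters, and the build macFas5 stands in the column names, per the file headers. Allele assignment, read filters and the handling of reads that match several copies are not given in the sources used here.

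Shares are percents of a daughter's allelic reads, and paternal shares use daughters with 10 or more reads in the row. Genes without a value in a daughter entered the parental fits as 0 reads. Parental columns were compared on the counts with edgeR 4.0.16 in R 4.3.3 (glmQLFit, robust prior), the daughter as block and library size summed over both columns, on genes with 10 reads in 5 daughters, with Benjamini-Hochberg adjustment over all genes and a threshold of 0.05; DESeq2 1.42.0 was the alternative. Single values used exact permutation tests, or 100000 permutations with 10 daughters (Python 3.11.15, NumPy 2.4.6, SciPy 1.17.1, pandas 2.3.3, matplotlib 3.10.9). The 10 daughters are separate animals, but some share a parent, and no fit or permutation test accounted for kinship. No 2 columns were identical (0 found). Columns were matched by sample title. Depth, 30090 to 999471 allelic reads, sets the Wilson intervals.

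Members, lists and tests were chosen with earlier results of these data known. Named genes were the 7 rows, the 5 other transfer RNA rows, up to 4 genes per list with the highest mean level and the 5 genes most like the rows. Alternatives were other filters, scalings, denominators and tools, no block, and leaving out each daughter.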

Additional observations from a re-analysis of the deposited data

Results flagged for a closer look

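Each group of values was examined for a daughter lying far from the other values, by the gap to its nearest neighbour relative to the range. Of 47 groups, 7 had one. Chance gives about 1 in 20 when all values have the same variance, but the daughters differed in depth. In daughter 1 the paternal share was 46.6% for TRNAW-CCA (49.5% to 51.2% in the other 9) and 45.8% for TRNAF-GAA (48.7% to 50.9%), on 1011 and 609 reads. Also in daughter 1, TRNAC-GCA had 75% of 16 reads, with 40% to 55.4% in the others, and TRNAE-CUC held 0.0199% of allelic reads (6 reads), with 0.00201% to 0.0102% in the others. TRNAI-UAU had 37% of 200 reads in daughter 2, with 45.2% to 53.7% in the others with 10 or more reads. GTF3C1 had a paternal share of 28.3% in daughter 10 (45.9% to 58.1% in the others), and CLSTN1 74.8% in daughter 8 (46.8% to 58.0%). Daughter 1 has the fewest reads; the part of depth in these values was not tested.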

How the results depend on the processing

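None of the 7 rows was called for a parental difference, or for its interaction with title prefix, under any alternative run. Over all genes the parental comparison gave 2 calls with no read filter and 0 to 1 with a daughter left out, the 1 without daughter 4. The interaction gave 0 with DESeq2, 0 with no filter, 0 with 8 or more daughters required, and 0 to 2 with a daughter left out. As a percent of the reads outside transfer RNA the 7 rows came to 46.9%. Values near 0 changed sign, all uncalled, and the cause was not tested. For the log2 parental difference these were TRNAW-CCA (0.011 with DESeq2, 0.0041 with TMM, -0.0082 to 0.020 with a daughter left out), TRNAR-UCG (-0.0074 to 0.040), TRNAL-UAG (-2.8e-05 to 0.021) and TRNAE-CUC (-0.073 to 0.12, and -0.18 with no replicate block). For the interaction they were TRNAV-AAC (0.0033 with DESeq2, 0.014 with TMM, -0.023 to 0.013 with a daughter left out), TRNAL-UAG (0.015 with TMM, -0.024 to 0.024), TRNAR-UCG (-0.023 to 0.066), TRNAC-GCA (-0.25 to 0.059), TRNAI-UAU (-0.13 to 0.11) and TRNAA-UGC (-0.14 to 0.0048). For the level between prefixes, leaving out a daughter gave -0.030 to 0.017 for the 7 rows together, -0.073 to 0.0025 for TRNAV-AAC and -0.096 to 0.098 for TRNAW-CCA. For r with depth it gave -0.53 to 0.10 for TRNAG-CCC, -0.37 to 0.46 for TRNAV-AAC and -0.69 to 0.51 for TRNAR-UCG, each turning without daughter 1. Of 1329 values recomputed under alternatives, 1249 kept their direction and side of the threshold or moved by less than the spread. The parental fit pairs both columns of a daughter; without that block 0 genes were called. No fit paired daughters between prefixes, where shared parents tie daughters 1, 6, 7, 8 and 10 alone.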
